A study of Homo sapiens with 15 samples.

Results

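The 9 genes described here, ATOH7, NEUROG2, FOXN4, OLIG2, DLL1, DLL3, HES6, INSM1 and NEUROD4, are expressed by retinal progenitors that are about to leave the cell cycle and become neurons. They were chosen by name for this role, with earlier results of these data known, and were matched by symbol. They are 9 of the 19684 genes in the deposited tables. RNA-seq had been performed on 15 libraries, 3 in each of 5 groups, all from BC1-GFP, a single human induced pluripotent stem cell (hiPSC) line whose genotype is labelled WT. The groups were undifferentiated hiPSCs, neural retina (NR) layers dissected from retinal organoids (ROs) at day 70 (D70-ROs) and at day 150 (D150-ROs), and induced Müller glial cells (iMGCs) that had grown out of dissociated D150-RO NR layers in medium with serum and were collected at passage 1 (P1) or passage 5 (P5). No drug or genetic treatment separated the groups. By the methods, the organoid medium also held serum, and its supplement was exchanged between day 70 and day 150. Medium and age of the ROs therefore cannot be told apart. The libraries of the organoid groups each pooled several ROs (5 by the methods, 3 to 5 by the series text), and the sources give either 3 or 2 independent experiments for hiPSCs and ROs, so that p-values may measure a spread that is partly technical. A batch correction and a second sequencing provider are named in 1 source and not in the other, with no library assigned to either, so batch and group cannot be told apart.

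In the developing retina, multipotent progenitors give rise to neurons in an overlapping order that begins with retinal ganglion cells and ends with rods, bipolar cells and Müller glia. Basic helix-loop-helix (bHLH) proneural factors pair with E-proteins, bind E-box DNA and push a progenitor toward a neuronal fate. The same cells display Delta-like (DLL) ligands, which activate Notch in their neighbours, and Notch in turn induces the HES and HEY repressors that hold the neighbours in the progenitor or glial state.

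Among the 9 genes, ATOH7 is a bHLH factor needed for ganglion cells, NEUROG2 a proneural bHLH factor of neurogenic progenitors, NEUROD4 a bHLH factor of bipolar and amacrine genesis, and OLIG2 a bHLH factor of retinal progenitors near their last division and of the oligodendrocyte lineage. FOXN4 is a forkhead factor needed for amacrine and horizontal cells. INSM1 is a zinc-finger repressor of neuronal and neuroendocrine precursors. DLL1 is a Notch ligand, DLL3 is a divergent family member that stays mostly inside the cell, and HES6 is a HES relative that counters HES1 and favours neuronal differentiation.

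By the GENCODE 29 annotation of GRCh38, ATOH7 (ENSG00000179774) lies at chr10:68230624-68232103 on the minus strand with 1 exon, and INSM1 (ENSG00000173404) at chr20:20368121-20370949 on the plus strand with 1 exon. HES6 (ENSG00000144485) lies at chr2:238238267-238240662 on the minus strand, and NEUROD4 (ENSG00000123307) at chr12:55019945-55030014 on the plus strand. FOXN4 (ENSG00000139445) lies at chr12:109277979-109309220 and DLL1 (ENSG00000198719) at chr6:170282206-170306565, both on the minus strand. DLL3 (ENSG00000090932) lies at chr19:39498895-39508481 and OLIG2 (ENSG00000205927) at chr21:33025845-33029196, both on the plus strand. NEUROG2 (ENSG00000178403, chr4:112513516-112516172, minus strand) shares 92 exonic bases, 4.02% of its exons, with an antisense transcript. Because strand use in counting is not stated, reads over those 92 bases cannot be told apart. The other 8 genes share no exonic base with another annotated gene.

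The upstream sequences of 3 of the genes are shown because these genes followed different courses: ATOH7 and HES6 were highest at day 70, and NEUROD4 was highest at day 150. They come from the RefSeq promoter table of GRCh38.p14, which held 5 of the 9 genes (ATOH7, NEUROG2, FOXN4, HES6 and NEUROD4). Bases upstream of the RefSeq start are printed 5′ to 3′ on the gene's strand without exon bases, at chr10:68232114-68232363 for ATOH7 (minus strand, 250 bases), chr2:238240125-238240288 for HES6 (minus strand, 164 bases) and chr12:55019724-55019944 for NEUROD4 (plus strand, 221 bases). Capitals mark every match to CANNTG, the E-box core that bHLH dimers bind, which reads the same on both strands.
ATOH7: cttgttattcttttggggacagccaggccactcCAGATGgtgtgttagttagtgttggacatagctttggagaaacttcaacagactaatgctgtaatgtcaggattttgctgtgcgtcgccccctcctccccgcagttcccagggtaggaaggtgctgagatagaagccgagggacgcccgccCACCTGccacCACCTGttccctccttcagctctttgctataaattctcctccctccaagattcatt
HES6: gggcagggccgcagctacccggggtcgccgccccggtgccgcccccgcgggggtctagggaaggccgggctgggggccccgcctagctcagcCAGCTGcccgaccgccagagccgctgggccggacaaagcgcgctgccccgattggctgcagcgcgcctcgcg
NEUROD4: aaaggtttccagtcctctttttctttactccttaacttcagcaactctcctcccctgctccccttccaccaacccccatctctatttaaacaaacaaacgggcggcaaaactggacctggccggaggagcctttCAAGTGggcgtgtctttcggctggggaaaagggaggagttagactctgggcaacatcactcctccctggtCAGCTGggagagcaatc

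Distances are counted from the RefSeq start, and the 86 bases of HES6 and 29 bases of NEUROD4 nearest to it, which GENCODE places in an exon, are not printed. The HES6 stretch lies inside the GENCODE span of the gene, in an intron of a transcript that starts farther upstream, while those of ATOH7 and NEUROD4 lie outside the gene. ATOH7 held 3 such matches, 217, 66 and 56 bases before the start, the nearer pair both reading CACCTG. NEUROD4 held 2, CAAGTG at 116 and CAGCTG at 46 bases, and HES6 held 1, CAGCTG at 158 bases. FOXN4 held 1 (CAGTTG at 200 bases), and the 250 bases of NEUROG2 held no CANNTG. Of 35116 promoters of 250 bases in the table, 61.8% held at least 1 CANNTG, so the letters are common and a match is a description, not a site. The more specific CAGCTG was present in 14.0% of them.

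Library totals ranged from 11349600 expected counts in a D70-RO library to 20398755 in a hiPSC library. The labels were checked by marker genes. The 5 pluripotency markers (POU5F1, NANOG, LIN28A, TDGF1, DNMT3B) summed to 3391 to 3510 FPKM (fragments per kilobase of transcript, scaled to mapped reads) in hiPSCs and to at most 17.0 in every other library. The 5 retinal progenitor markers had sums of 1119 to 1294 FPKM at day 70, 438 to 467 at day 150 and 5.51 to 7.49 in iMGCs, where RAX was listed at 0. Among 5 Müller glia markers, RLBP1, a defining gene of these cells, was listed at 0 in all P1 iMGC libraries. The sum of the 5 was 2160 to 2199 FPKM there and 2821 to 2919 at P5. Organoid libraries had sums of 1387 to 2210 FPKM (day 70) and 1182 to 1346 (day 150), and hiPSC libraries 209 to 243. At P1, 3 of the 5 markers were at or above 1 FPKM, against all 5 at both organoid ages. Because the P1 range lay within the day 70 range, this sum does not set P1 iMGCs apart from early organoids. The 5 mesenchymal markers, led by collagens, summed to 2324 to 2776 FPKM in iMGCs and to 19.1 to 22.8 in D150-ROs.

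In hiPSCs, 6 of the 9 genes were under 1 FPKM in every library. HES6, DLL3 and DLL1 were the ones that were not. In D70-ROs, all 9 genes were at or above 1 FPKM in every library. In D150-ROs OLIG2 alone had dropped under that level, and in the 6 iMGC libraries every gene was under it. The summed level of the 9 genes was 26.4 ± 1.02 FPKM in hiPSCs (SD, n = 3), 349.6 ± 31.4 at day 70, 212.9 ± 2.52 at day 150, 1.03 ± 0.0872 in P1 iMGCs and 0.81 ± 0.115 in P5 iMGCs. These are bulk libraries, in which fewer cells of a type and less RNA per cell cannot be told apart.

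**Figure D1:**
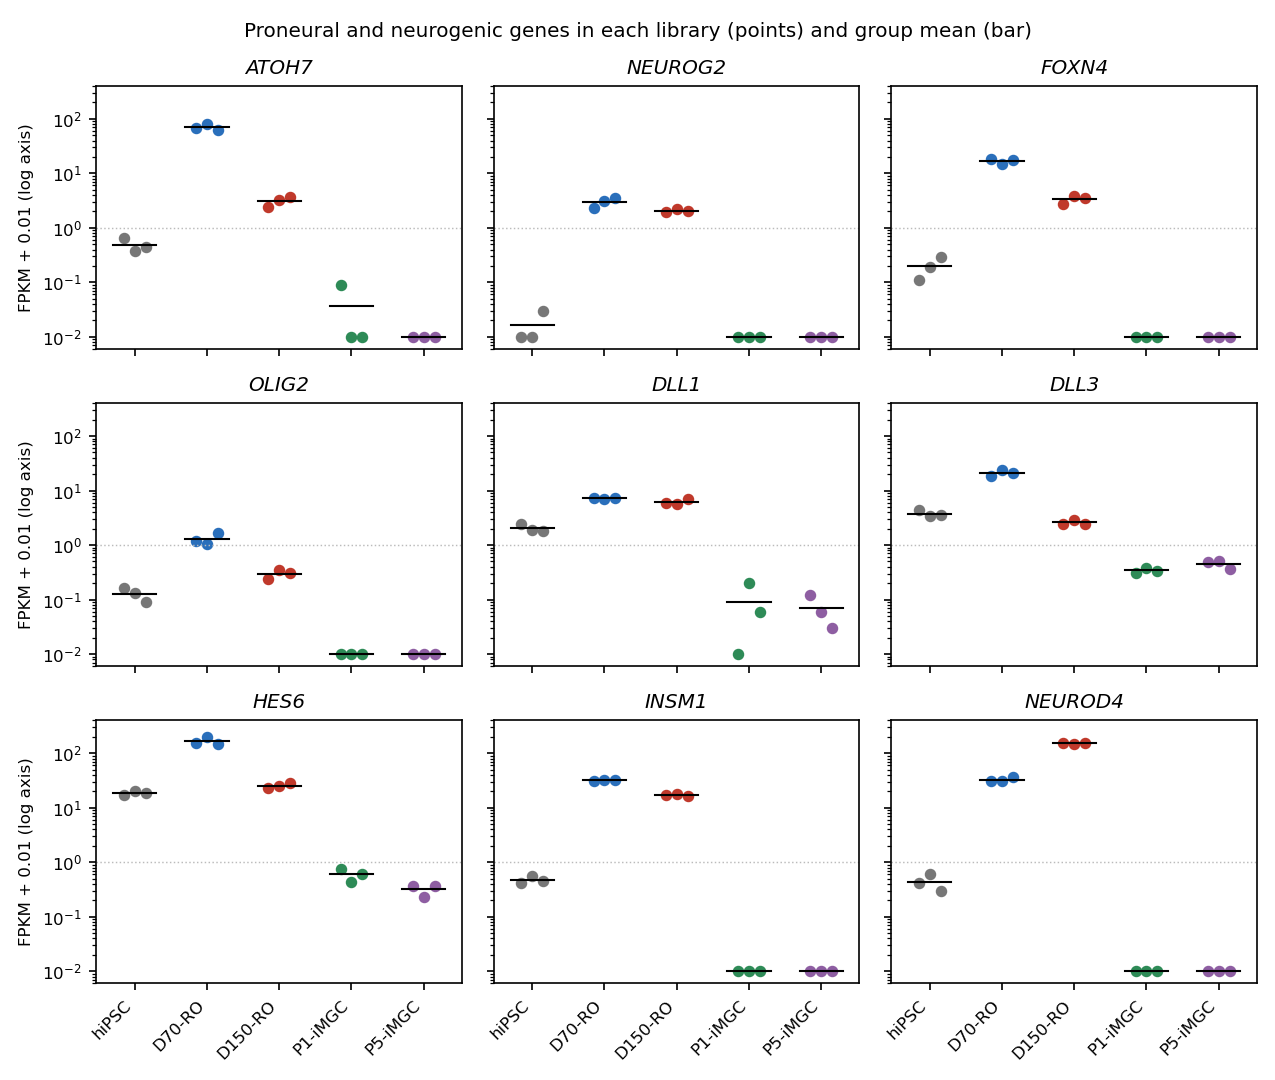
Level of each gene in each library, as FPKM + 0.01 on a log axis. Points are libraries (3 per group, grey hiPSC, blue D70-RO, red D150-RO, green P1 iMGC, purple P5 iMGC), bars are group means, and the dotted line marks 1 FPKM; 8 genes peaked in D70-ROs and NEUROD4 in D150-ROs, and every gene was under 1 FPKM in iMGCs.

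The first comparison asked which of these genes came up between the pluripotent state and the early organoid. Genes were tested with edgeR (quasi-likelihood F test, Benjamini-Hochberg adjusted over all genes tested), and a gene was called at an adjusted p under 0.05 and a change of at least 2-fold. Errors of log2 fold changes are standard errors (SE). Where libraries of 2 groups are said not to overlap, the share of all genes without overlap was not counted, so this describes levels only. All 9 genes rose in D70-ROs, where 22.5% of the 12954 genes tested rose and 21.1% fell. Their median log2 fold change was 5.95, beside 0.02 over all genes tested. The 6 genes that were under 1 FPKM in every hiPSC library passed the filter through their D70-RO level alone and so had to differ. This makes the count and the median a description. The same holds for the calls and p-values of those 6 genes (ATOH7, NEUROG2, FOXN4, OLIG2, INSM1 and NEUROD4) in this comparison.

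ATOH7 stood at 0.64, 0.36 and 0.43 FPKM in the hiPSC libraries and at 67.21, 78.88 and 62.56 in the D70-RO libraries. All D70-RO libraries were thus far above all hiPSC libraries, and its mean ranked 977th among all genes at day 70 against 13039th in hiPSCs. ATOH7 rose by 7.04 (log2, SE 0.22, adjusted p = 8.61e-10, edgeR), or 132-fold.

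INSM1 and NEUROD4, both markers of cells committed to a neuronal fate, had nearly the same level at day 70. INSM1 went from 0.40, 0.54 and 0.45 FPKM in hiPSCs to 30.88, 31.95 and 32.48 in D70-ROs. NEUROD4 went from 0.40, 0.61 and 0.29 FPKM to 31.60, 30.36 and 36.37. Neither gene's groups overlapped. INSM1 rose by 5.95 (SE 0.17, adjusted p = 5.30e-10) and NEUROD4 by 6.10 (SE 0.23, adjusted p = 2.45e-09) on the log2 scale in edgeR.

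FOXN4 was at 0.10, 0.18 and 0.28 FPKM in hiPSCs and at 18.56, 14.93 and 17.20 in D70-ROs. It rose by 6.36 (log2, SE 0.26, adjusted p = 3.92e-09). NEUROG2 had 1 expected count over the 3 hiPSC libraries and 332 over the 3 D70-RO libraries, where it stood at 2.31, 3.12 and 3.56 FPKM. It was called higher, and the 95% counting interval of its log2 ratio, which covers counting error only, ran from 6.02 to 13.81. OLIG2 was the lowest of the 9 genes at day 70, at 1.19, 1.03 and 1.62 FPKM, against 0.15, 0.12 and 0.08 in hiPSCs. Its groups did not overlap, and its log2 rise of 3.25 rested on 18 expected counts in hiPSCs.

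The Notch-related members started from a measurable level in hiPSCs. HES6 was at 17.35, 20.40 and 18.85 FPKM in hiPSCs and at 156.47, 194.93 and 146.67 in D70-ROs, and it rose 7.88-fold (log2 2.98, SE 0.15, adjusted p = 1.75e-08, edgeR). DLL3 was at 4.32, 3.47 and 3.54 FPKM in hiPSCs and at 18.50, 23.45 and 21.18 in D70-ROs, a 5.26-fold rise. DLL1 was at 2.44, 1.85 and 1.79 FPKM and at 7.37, 7.13 and 7.31, the smallest rise of the 9, at 2.86-fold (log2 1.52, SE 0.20, adjusted p = 3.13e-05). In none of the 3 did the hiPSC and D70-RO libraries overlap.

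The next comparison, of D150-ROs with D70-ROs, asked how the genes moved as the organoids matured. Of the 9 genes, 6 fell, 1 rose and 2 were not called. Among the 12855 genes tested 16.7% fell and 16.6% rose. The median log2 fold change of the 9 was -2.18, beside -0.01 over all genes tested. Both comparisons use the D70-RO libraries.

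ATOH7 had the largest fall. Its D150-RO libraries stood at 2.45, 3.27 and 3.65 FPKM, and the group mean was 4.49% of the D70-RO mean. ATOH7 fell by 4.70 (log2, SE 0.17, adjusted p = 1.35e-07, edgeR), and it dropped to rank 10988 among all genes. It nevertheless remained above the hiPSC libraries, without overlap.

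DLL3 fell to 2.40, 2.93 and 2.44 FPKM and HES6 to 22.67, 24.81 and 28.86. DLL3 was at 12.3% and HES6 at 15.3% of the D70-RO mean. FOXN4 fell to 2.76, 3.84 and 3.57 FPKM, 20.1% of its D70-RO mean, and OLIG2 to 0.23, 0.34 and 0.30 FPKM, 22.7% of its D70-RO mean. No D150-RO library of these 4 genes reached the lowest D70-RO library. In edgeR the log2 fold change was -3.19 for DLL3 and -2.18 for OLIG2, and both were called. OLIG2, under 1 FPKM in every D150-RO library, had passed the filter through its D70-RO level alone, so its call is a description. On the log2 scale HES6 fell by 2.92 (SE 0.15, adjusted p = 6.22e-07) and FOXN4 by 2.54 (SE 0.13, adjusted p = 7.82e-07) in edgeR. The call of OLIG2 was lost on the log2(FPKM + 1) scale (limma, -0.81), which compresses changes of genes near 1 FPKM.

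The remaining falls were small. INSM1 stood at 16.98, 17.75 and 16.78 FPKM at day 150, 54.0% of its D70-RO mean, with no overlap. INSM1 fell by 1.11 (log2, SE 0.083, adjusted p = 5.01e-06, edgeR), just past the 2-fold limit. It came to -0.89 when libraries were scaled by their totals alone and to -0.85 in limma on log2(FPKM + 1), both under that limit. A test against a 2-fold change gave an adjusted p of 0.133 (edgeR).

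NEUROG2 was at 1.95, 2.17 and 1.99 FPKM in D150-ROs, against a lowest D70-RO library of 2.31. Its log2 fold change was -0.77 (SE 0.21, adjusted p = 0.00881, edgeR), under the 2-fold limit. DLL1 was at 5.89, 5.66 and 6.91 FPKM, 84.6% of its D70-RO mean, with a log2 fold change of -0.33 (SE 0.13, adjusted p = 0.0454, edgeR). The 2 DLL genes thus had unlike courses in their FPKM levels, with DLL1 at 84.6% and DLL3 at 12.3% of the day 70 level. This difference between the genes was not tested.

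NEUROD4 was the one gene that rose. Its D150-RO libraries stood at 155.99, 150.78 and 151.29 FPKM, all above the highest D70-RO library of 36.37. NEUROD4 rose 3.99-fold (log2 2.00, SE 0.087, adjusted p = 3.22e-07, edgeR), and its mean moved from rank 2392 to rank 280 among all genes.

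**Figure D2:**
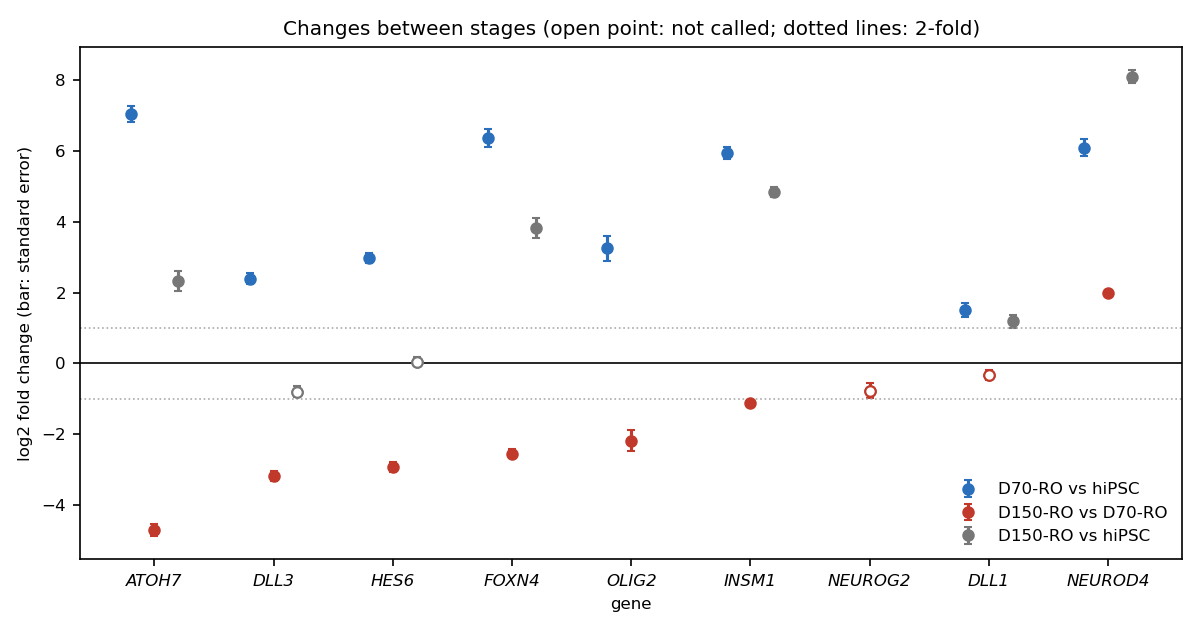
Log2 fold changes of the genes from edgeR, with bars of 1 standard error, for D70-ROs against hiPSCs (blue), D150-ROs against D70-ROs (red) and D150-ROs against hiPSCs (grey). Open points were not called and dotted lines mark a 2-fold change; NEUROG2 against hiPSCs (1 count) and OLIG2 in D150-ROs against hiPSCs (under the filter) are not drawn, and in red only NEUROD4 lies above 0.

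The make-up of the summed level changed with these moves. Of the 9-gene sum, HES6 held 71.5 ± 3.74% in hiPSCs (SD, n = 3), 47.3 ± 3.00% at day 70 and 11.9 ± 1.34% at day 150. The share of ATOH7 was 19.9 ± 0.748% at day 70 and 1.47 ± 0.275% at day 150. NEUROD4 went the other way, from 9.46 ± 1.59% to 71.7 ± 1.90%. The sum was thus led by HES6 in hiPSCs and D70-ROs and by NEUROD4 in D150-ROs.

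**Figure D3:**
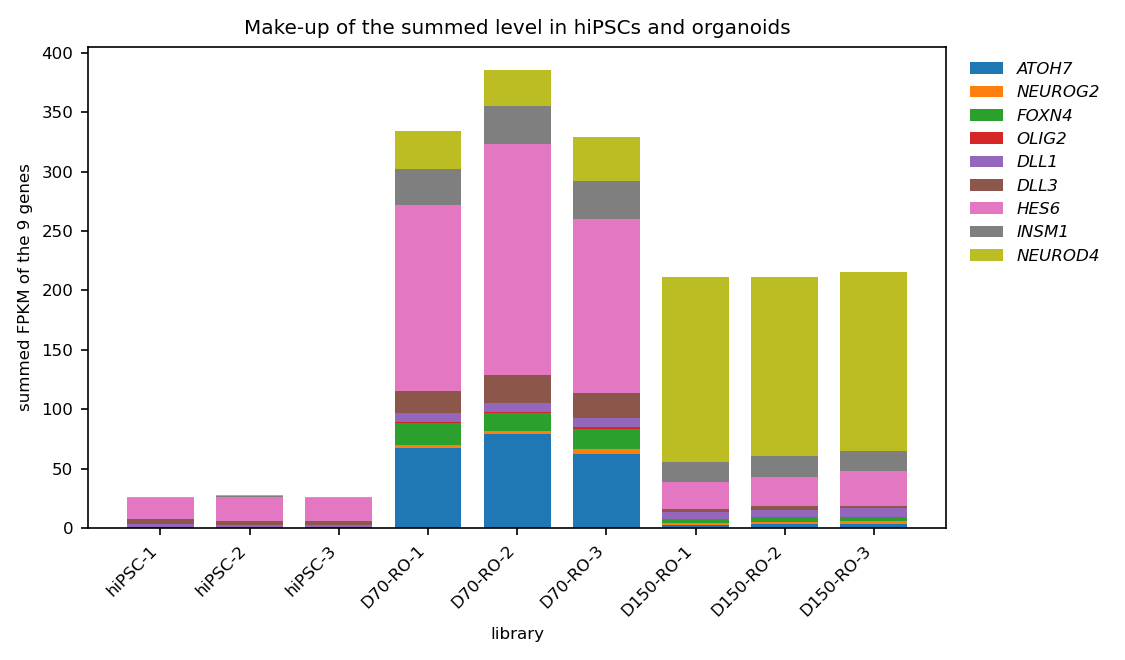
Summed FPKM of the 9 genes in each hiPSC, D70-RO and D150-RO library, stacked by gene. The D70-RO bars (328.95 to 385.78 FPKM) are mostly HES6 and ATOH7, and the D150-RO bars (211.32 to 215.79 FPKM) are mostly NEUROD4.

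Against hiPSCs, D150-ROs still had higher levels of most of the genes. Of the 8 genes tested, 6 were called higher and 2 were not called, beside 29.8% higher and 29.0% lower among 13344 genes. ATOH7, NEUROG2, FOXN4, INSM1 and NEUROD4, 5 of the 6, were under 1 FPKM in every hiPSC library, passed the filter through their D150-RO level alone and so had to differ, which makes the count a description. NEUROD4 was 275-fold higher (log2 8.10), INSM1 28.7-fold (log2 4.84), FOXN4 14.1-fold (log2 3.82) and ATOH7 5.07-fold (log2 2.34). NEUROG2, with 1 expected count in hiPSCs, had a 95% counting interval of the log2 ratio from 5.26 to 13.06. DLL1 was 2.28-fold higher (log2 1.19), and the test against a 2-fold change gave it an adjusted p of 0.0966 (edgeR).

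DLL3 and HES6 were the 2 that were not called. The log2 fold change of DLL3 was -0.80 (SE 0.16, adjusted p = 4.81e-04, edgeR), under the 2-fold limit, so that DLL3 was the one gene with D150-RO levels below the hiPSC levels, without overlap. HES6 had a log2 fold change of 0.05 (SE 0.12, adjusted p = 0.665). In FPKM its D150-RO libraries (22.67 to 28.86) lay above its hiPSC libraries (17.35 to 20.40). FPKM was scaled to library size. The edgeR value was scaled by its own factors as well, 1.13 to 1.14 in D150-RO libraries and 0.866 to 0.890 in hiPSC libraries. The difference of HES6 between these 2 groups was thus not the same on the 2 scales. OLIG2, under the filter in this comparison, had 40 expected counts in D150-ROs and 18 in hiPSCs.

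In the P1 iMGCs, expression of the 9 genes was at or near 0. All 8 genes tested against D150-ROs fell, beside 24.1% lower and 20.0% higher among 12896 genes. OLIG2 was under the filter. Each of the 8 was under 1 FPKM in every P1 library and had passed the filter through its D150-RO level alone. All 8 thus had to be lower, which makes the count a description.

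NEUROG2, FOXN4, OLIG2, INSM1 and NEUROD4 had no count in any of the 6 iMGC libraries. Against a floor of 3 counts over the group, NEUROD4 was at least 6459-fold lower in P1 iMGCs than in D150-ROs. By the same floor INSM1 was at least 520.0-fold, FOXN4 at least 118.7-fold, NEUROG2 at least 49.9-fold and OLIG2 at least 8.87-fold lower. The floor covers counting error only, and the bounds follow how high each gene was in D150-ROs.

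ATOH7 had 2 expected counts, both in 1 of the 3 P1 libraries (0.08 FPKM), against 224 in D150-ROs. The 95% counting interval of the log2 ratio of D150-ROs to P1 iMGCs ran from 4.35 to 9.27. DLL1 was at 0, 0.19 and 0.05 FPKM, or 8 expected counts. It fell by 6.13 (log2, SE 0.32), and by 5.58 to 6.94 when any 1 library was left out, the larger value without P1 replicate 2. HES6 was at 0.75, 0.43 and 0.59 FPKM, 2.32% of its D150-RO mean by FPKM. In edgeR, with its own scaling, HES6 fell by 4.71 (log2, SE 0.18), or 26.2-fold.

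DLL3 kept the largest share of its D150-RO level. It was at 0.30, 0.37 and 0.33 FPKM in P1 iMGCs, 12.9% of its D150-RO mean by FPKM. In edgeR, which scales counts by its own factors, DLL3 fell by 2.38 (log2, SE 0.25), or 5.19-fold, a smaller fall than by FPKM. This rested on 35 expected counts over the 3 P1 libraries. DLL3 and HES6 were the only genes of the 9 listed above 0 in all 6 iMGC libraries.

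The P5 iMGCs had the same 5 genes at 0 counts, and ATOH7 as well. All 8 genes tested were lower than in D150-ROs, beside 23.9% lower and 20.8% higher among 12933 genes. Each of the 8 was under 1 FPKM in every P5 library and had passed the filter through its D150-RO level alone. All 8 thus had to be lower, which makes the count a description. NEUROD4 was at least 6208-fold, INSM1 at least 499.8-fold, FOXN4 at least 114.1-fold, NEUROG2 at least 48.0-fold, ATOH7 at least 47.8-fold and OLIG2 at least 8.53-fold lower. DLL3 was at 0.47, 0.50 and 0.35 FPKM in the 3 libraries. The log2 fold change was -1.90 for DLL3, -5.68 for HES6 and -5.76 for DLL1 (SE 0.28). The value of DLL1, which had 10 expected counts at P5, ran from -6.41 to -5.40 when any 1 library was left out, the lowest without P5 replicate 1. Both passages were compared with the same D150-RO libraries.

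Between the passages themselves none of the 9 genes reached the filter, so 0 were tested, while 1.94% of 11366 genes were higher and 0.977% lower at P5. With no filter, 4 of the genes had a count, and edgeR called 0 of them, with 0 at an unadjusted p under 0.05. HES6 was the nearest, at 0.36, 0.22 and 0.35 FPKM in P5 iMGCs. These values lay under all 3 P1 libraries (lowest 0.43), but the log2 fold change of -0.96 (SE 0.52) had an unadjusted p of 0.0648 and an adjusted p of 0.182 in edgeR. Its 43 counts at P1 and 21 at P5 set how firmly this can be said. DLL3 (log2 0.48, adjusted p = 0.493) and DLL1 (log2 0.36, adjusted p = 0.827) had overlapping libraries in the 2 passages.

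By FPKM, the order of the groups was D70-ROs, D150-ROs, hiPSCs and then iMGCs for ATOH7, NEUROG2, FOXN4, OLIG2, DLL1, HES6 and INSM1. It was D150-ROs, D70-ROs, hiPSCs and iMGCs for NEUROD4. For DLL3 it was D70-ROs, hiPSCs, D150-ROs and iMGCs. Neighbours in these orders did not overlap, except that NEUROG2 was at 0 in 2 of 3 hiPSC libraries and in all iMGC libraries, and that P1 and P5 iMGCs overlapped for every gene but HES6. How often the groups were apart over all genes was not counted, so the orders are a description.

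The other genes of the same pathway were described by lists. Some genes of a list passed the filter through 1 group alone, so the counts and medians of the lists are descriptions. Of 14 other proneural and neurogenic bHLH genes, 7 passed the filter in D70-ROs against hiPSCs, where 6 rose and 1 fell. BHLHE22 (log2 8.06), NEUROD1 (7.10) and NHLH1 (6.71) were among those that rose. OLIG3 was the one that fell, from 548 expected counts over the hiPSC libraries to 0 in D70-ROs, opposite to OLIG2. Between D70-ROs and D150-ROs, 2 rose, 2 fell and 3 were not called. NEUROG1 (log2 2.19, from 2.80 to 15.2 FPKM) and NEUROD1 (log2 1.13) rose, and NHLH1 (-2.22) and PTF1A (-2.12), a factor of amacrine and horizontal cells, fell. In P1 iMGCs all 5 genes tested fell, and NEUROG1, NEUROD1 and BHLHE22 were among those with 0 counts.

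NEUROG2 and NEUROG1 are close relatives. NEUROG2 was at 3.00 ± 0.634 FPKM (SD, n = 3) at day 70 and 2.04 ± 0.117 at day 150, and NEUROG1 at 2.80 ± 0.749 and 15.2 ± 1.93. At day 70 their libraries were alike in level, and at day 150 NEUROG1 was the higher.

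The E-proteins, partners of the bHLH factors, and the ID proteins, which sequester those partners, were described in the same way. Of 7 such genes, 2 rose and 1 fell in D70-ROs against hiPSCs (ID4 rose by 3.49 and TCF12 by 1.11, and the log2 fold change of TCF3 was -1.07). Between the organoid ages TCF4 rose (log2 1.71) while ID3 (-2.14) and ID2 (-1.96) fell, and 4 were not called. In P1 iMGCs 3 fell (ID4 -3.29, TCF4 -2.12, ID2 -1.09) and 4 were not called, with TCF3 at 30.3 and TCF12 at 29.9 FPKM.

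Of 11 other Notch ligands and ligand modifiers, 5 rose and 2 fell in D70-ROs against hiPSCs. DLL4 rose by 7.41 on the log2 scale, and JAG1, a ligand of the Jagged type, fell by 2.48. Between the organoid ages 2 rose (JAG1 by 2.54 and NEURL1 by 2.30), 2 fell (DLK1 and MFNG) and 7 were not called, among them DLL4 at -0.63. The call of DLK1 rested on D70-RO libraries that averaged 11.6 ± 13.3 FPKM. In P1 iMGCs DLL4 had 5 expected counts over 3 libraries, and 6 of the 11 fell while LFNG, which modifies Notch, rose (log2 1.69). DLL1, DLL3 and DLL4 were thus all below 1 FPKM in P1 iMGCs, where JAG1 was at 22.7 ± 0.417 FPKM.

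On the receiving side, 11 of 12 Notch receptor and HES/HEY genes were tested. In D70-ROs against hiPSCs 5 rose and 2 fell, with HES5 up by 6.72 and HES4 by 5.58 on the log2 scale. Between the organoid ages 5 fell (HES1 -2.02, NOTCH3 -1.60, NRARP -1.53, HES4 -1.22, HES5 -1.10) and 3 rose (HEY2 2.58, NOTCH2 1.28, HEYL 1.08). In P1 iMGCs 7 fell and 2 rose (NOTCH3 1.87 and NOTCH2 1.60), and HES5 had 0 counts.

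Of 16 genes of the neurogenic transition, all 16 rose in D70-ROs against hiPSCs, with ELAVL4, STMN2, ST18 and INSM2 ahead. Of these, 7 were under 1 FPKM in every hiPSC library and had to differ to pass the filter. Between the organoid ages 5 fell, 2 rose and 9 were not called, with a median log2 fold change of -0.13. ELAVL4 (-3.48), STMN2 (-3.19) and ELAVL3 (-1.33), genes of young neurons, fell. INSM2, the relative of INSM1, rose by 2.43, from 3.32 to 20.6 FPKM, while INSM1 fell in the same libraries. GADD45G, at 46.1 FPKM at day 70 and 60.1 at day 150, and SOX4 were not called.

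**Figure D4:**
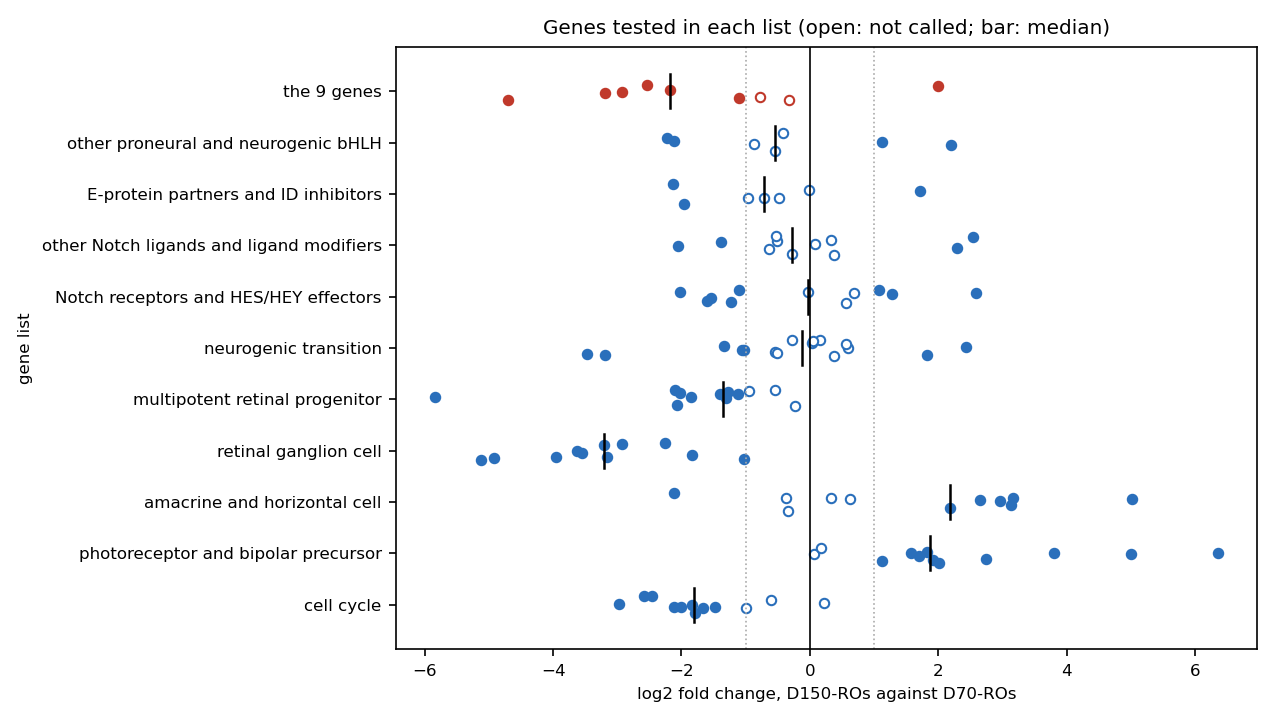
Log2 fold change of D150-ROs against D70-ROs for the genes tested in each list, with filled points for called genes, open points for genes not called and a bar at the list's median. The median of the 9 genes (red) was -2.18, that of the ganglion cell list -3.20 and that of the photoreceptor and bipolar list 1.87.

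The lists of retinal cell classes moved in both directions between the organoid ages, where the median log2 fold change of the 9 genes was -2.18. Of 12 multipotent progenitor genes 9 fell and 0 rose. All 11 tested genes of the ganglion cell list fell, with a median of -3.20, and POU4F2, a ganglion cell factor downstream of ATOH7, fell by 5.12 on the log2 scale. POU4F1, POU4F2, EBF1 and SNCG, 4 of the 11, were under 1 FPKM in every D150-RO library and passed the filter through their D70-RO level alone, which makes this count and median a description. ATOH7 itself fell by 4.70, and a link between these falls was not tested. Of 12 photoreceptor and bipolar genes, 10 rose and 0 fell, with a median of 1.87. Of 11 amacrine and horizontal cell genes 6 rose and 1 fell, with a median of 2.18, while FOXN4, which acts upstream in those lineages, fell. Of 12 cell-cycle genes 9 fell and 0 rose. The lists share genes in places, such as SOX11, PTF1A, NEUROD1 and HES1.

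Markers of other tissues also differed between the organoid ages. The summed FPKM of 5 pigment epithelium markers ranged from 82.9 to 133 among D70-RO libraries and from 5.59 to 6.13 among D150-RO libraries, with 3 of 5 at or above 1 FPKM at both ages, TYR at 0 in D150-ROs and none at 0 in D70-ROs. In hiPSCs the same sum was 120 to 138 FPKM, with 1 of 5 at or above 1 FPKM and TYR and RPE65 at 0. The sum alone thus does not stand for pigment tissue. The 4 astrocyte and optic stalk markers summed to 7.22 to 30.6 and 5.30 to 6.07 FPKM. The 5 oligodendrocyte lineage markers, relevant to OLIG2, summed to 32.0 to 44.7 and 51.6 to 61.9 FPKM with MOG at 0 at both ages. Their part in the changes of the 9 genes was not tested.

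Fold changes between the organoid ages moved with transcript length. The length was a relative one, inferred for each gene from its expected counts over its FPKM and not from annotation. The median log2 fold change was -0.67 over the shortest 25% of genes tested and 0.55 over the longest 25%. HES6 was at percentile 14.4 of this inferred length, ATOH7 at 16.3 and NEUROD4 at 71.2. Removing the trend with length left the calls of all 9 genes as they were.

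Across the 15 libraries, on the log2(FPKM + 1) scale, the genes most like each of the 9 were sought among 13914 genes. The libraries share 5 groups, so these correlations mostly describe the group means. NEUROD4 was most like CRX (Pearson r = 0.999), a photoreceptor and bipolar factor, and then RD3 and UBAP1L. INSM1 was most like RAX (r = 0.999), a progenitor factor, and then CPLX2. ATOH7 was most like TTC9B (r = 0.997) and then PRPH. NEUROG2 was most like BHLHE22, SYNPR and HES5, and FOXN4 most like CRYAA2, SLIT1 and RBP4. OLIG2 was most like PRPH, EBF3 and ALDH1A1, DLL1 most like ASTN1, FAM57B and DPYSL5, DLL3 most like REM2, HIST3H2A and FUNDC2, and HES6 most like GDAP1L1, FOXI3 and UBE2E3. None of the 9 was among the nearest genes of another. Between the 9 genes, r ranged from 0.573 for DLL3 with NEUROD4 to 0.992 for NEUROG2 with INSM1.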

How the data were processed

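The labels and methods give poly(A) RNA-seq with paired-end reads mapped by HISAT2, assembled by StringTie and quantified by RSEM. Tool versions, genome build and annotation are not given in the sources used here. The authors deposited expected counts (8.21% to 10.1% of values per library not whole) and FPKM, normalized to transcript length and library size. Depth was 11349600 to 20398755 expected counts per library. The D150-RO libraries stand in more than one table, with the same FPKM and counts that differed by at most 0.5. A set of 6 value columns for iMGCs with no stated passage was not used, nor were the authors' fold changes and p-values.

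Expected counts were rounded and tested pairwise over all genes with at least 1 FPKM in at least 3 of the libraries compared, with TMM factors and edgeR 4.0.16 (glmQLFit, glmQLFTest; R 4.3.3), and p-values were Benjamini-Hochberg adjusted over all genes tested. Standard errors are the absolute log2 fold change divided by the square root of F. Alternatives used DESeq2 1.42.0, limma 3.58.1 on log2(FPKM + 1) or log2(FPKM + 0.1), other scalings, no filter, a test against a 2-fold change, 1 fit over 15 libraries and leaving out each library. The fits were tested on simulated data. Symbols were checked in GENCODE 29, where all 19684 identifiers were found. All 9 genes were named in each comparison, and of each list up to 4 genes with the largest called changes plus genes that a result turns on. The genes and lists were chosen with earlier results of these data known. A few genes of the lists and of like pattern are not reported by name here.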

Additional observations from a re-analysis of the deposited data

How the results depend on the processing

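The numbers of the 9 genes called (9, 7, 6, 8, 8 and 0 in the 6 comparisons) did not change when any 1 library was left out, with DESeq2, with upper-quartile factors, in 1 fit over 15 libraries or with the length trend removed. Over all fold changes of these genes and alternatives, 665 kept their direction and side of the limits, 6 lost the call and 1 reversed. The losses were INSM1 between the organoid ages under 4 alternatives (library totals, both limma scales and the test against a 2-fold change), OLIG2 there in limma on log2(FPKM + 1), and DLL1 in D150-ROs against hiPSCs in the test against a 2-fold change. The reversal was HES6 in D150-ROs against hiPSCs, at -0.0399 without D150-RO replicate 3 (0.05 with all libraries, and -0.0399 to 0.1358 over the fits without 1 library). Over all genes, the test against a 2-fold change called 2830 genes between the organoid ages (4276 otherwise) and 161 between the passages, where limma on log2(FPKM + 1) called 152 and no filter 694 (332 otherwise).

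Scaling by library totals alone put the median log2 fold change of all genes at 0.16 (D70-ROs against hiPSCs), 0.21 (D150-ROs against D70-ROs), 0.34 (D150-ROs against hiPSCs), -0.69 (P1 iMGCs against D150-ROs) and -0.75 (P5 iMGCs against D150-ROs), and the cause was not tested. The share of calls that were higher then went from 49.8% to 63.9% between the organoid ages, from 50.7% to 61.5% for D150-ROs against hiPSCs, from 45.4% to 22.6% for P1 and from 46.5% to 22.0% for P5 iMGCs. The direction of every called change of the 9 genes was the same.

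Replicate numbers are shared by the groups, but the deviations of same-numbered libraries correlated at only -0.0795 to 0.350, and the numbers were not taken to pair the libraries. With a replicate block, 9 of the genes were called in D70-ROs against hiPSCs, 7 between the organoid ages, 6 in D150-ROs against hiPSCs and 8 in each passage against D150-ROs.

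Of the genes of like pattern, 1 of 3 was kept for NEUROG2, FOXN4, OLIG2, DLL1 and DLL3 and 0 of 3 for HES6 when 0.1 replaced 1 on the log scale. At the iMGC depth, levels under 3 counts per group could not be told from 0, and groups of 3 libraries were too small to look for outlying libraries.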
